A study of Mus musculus with 8 samples.

Results

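The D-type cyclins Ccnd1, Ccnd2 and Ccnd3, their kinase Cdk4, the inhibitors Cdkn1a and Cdkn1b and the atypical cyclins Ccng1 and Ccni were followed through the epithelium and stroma of the mouse uterus with and without Ezh2. These 8 genes were taken by symbol from the authors' comparison tables, with results of the tables in view, so their ratios and the authors' adjusted p-values are given as descriptions. Of 5828 genes listed in at least 1 table, 7 are members. Cdkn1a is not analysed here, nor is Ezh2 itself, so the deletion was not checked at its own transcript in these pools.

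Uteri came from 4 Ezh2cKO females (KO below, genotype EZ fl/fl; Prcre/+) and 4 control females (WT below, genotype EZ fl/fl), 1 of each from each of 4 litters of mixed C57BL/6 and 129SvEv background. Both genotypes carry the floxed Ezh2 alleles, and KO females alone carry the Cre, which is expressed from the progesterone receptor locus and so in cells that use that locus, in epithelium, stroma and muscle alike. All females were ovariectomized at postnatal day 71 ± 4 and their uteri taken at day 112 ± 11, weeks after the loss of ovarian hormones. Sections were read by Visium, in which barcoded spots under the tissue capture messenger RNA and a spot may cover more than a single cell. Transcripts are counted as unique molecular identifiers (UMIs). The tables pool the animals and hold 1 value per gene and group, so no spread between animals can be given, and every interval below covers counting error only.

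D-type cyclins bind Cdk4 or Cdk6 when a cell receives growth signals, and the active kinase phosphorylates the retinoblastoma protein, which lets a cell pass from G1 into S phase. Cdkn1b encodes p27, a protein that binds cyclin-kinase complexes and holds cells in G1. Cyclin D1 is a known responder to estrogen in the uterine epithelium. Ccng1 and Ccni encode cyclins that do not drive the cycle in the usual way, and Ccng1 is a target of p53. Ezh2 is the catalytic subunit of Polycomb repressive complex 2, a histone methyltransferase known for binding at CpG-rich promoters.

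Promoter sequences are shown for Ccnd3, whose KO over WT ratio was close to 2 in both compartments, and for Cdkn1b, called between compartments in WT. They are the 250 bases before each start in RefSeq on GRCm38.p6, plus strand, with CpG dinucleotides in capitals. Of the 7 listed members 5 matched the sequence table.
Ccnd3, upstream start, chr17:47504801-47505050: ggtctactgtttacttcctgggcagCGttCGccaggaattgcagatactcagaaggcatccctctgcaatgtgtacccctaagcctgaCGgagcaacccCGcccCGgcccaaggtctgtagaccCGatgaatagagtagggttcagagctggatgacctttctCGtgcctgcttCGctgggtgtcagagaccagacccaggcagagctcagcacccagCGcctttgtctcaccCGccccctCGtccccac
Ccnd3, downstream start, chr17:47593217-47593466: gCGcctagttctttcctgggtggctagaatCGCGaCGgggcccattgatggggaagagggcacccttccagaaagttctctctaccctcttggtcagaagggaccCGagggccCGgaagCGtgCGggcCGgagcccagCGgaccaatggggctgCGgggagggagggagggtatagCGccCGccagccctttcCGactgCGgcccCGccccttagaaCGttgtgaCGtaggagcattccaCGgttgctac
Cdkn1b, chr6:134920151-134920400: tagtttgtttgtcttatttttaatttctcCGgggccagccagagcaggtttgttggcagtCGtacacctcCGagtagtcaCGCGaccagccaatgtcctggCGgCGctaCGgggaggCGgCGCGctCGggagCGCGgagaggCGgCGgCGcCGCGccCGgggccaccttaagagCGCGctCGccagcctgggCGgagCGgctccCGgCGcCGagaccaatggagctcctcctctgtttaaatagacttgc
The upstream window of Ccnd3 holds 11 CpGs, its downstream window 19 and that of Cdkn1b 28. The median over all 32851 windows of this length is 6, and 92.4% of windows hold fewer CpGs than that of Cdkn1b. The counts do not show which start of Ccnd3 was used. The windows of Cdk4, Ccng1 and Ccni hold 13, 11 and 19 CpGs.

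For levels in all 4 pools, recovered UMIs were divided by the depth of the pool relative to WT stroma, which was 2.75 for KO epithelium, 2.54 for WT epithelium and 2.01 for KO stroma. These scaled UMIs are on 1 scale that joins tables normalized separately. Defining markers of the compartments were present: 15 simple epithelium markers with a value in every pool had a summed level 3.12-fold higher in the epithelium of KO uteri than in their stroma, and 7.14-fold higher in the epithelium of WT uteri. The same ratios of 17 endometrial stroma markers were 0.532 in KO and 0.350 in WT. Higher levels in a pool may come from more cells of a type or more RNA per cell, which cannot be told apart here.

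Ccnd1, on chromosome 7 (144929931 to 144939925, minus strand, GRCm38), gave KO epithelium 426 UMIs, WT epithelium 338, KO stroma 212 and WT stroma 35. Scaled to 1 depth, KO epithelium had 155 (95% Poisson interval 140 to 170), WT epithelium 133 (119 to 148), KO stroma 105 (91.7 to 121) and WT stroma 35 (24.4 to 48.7). WT stroma stood apart as the low pool, and KO stroma lay nearer to the epithelial pools than to WT stroma. Each neighbouring pair in this order differed beyond counting error, by 1.16-fold for KO over WT epithelium (95% Clopper-Pearson interval 1.01 to 1.35) and by 1.26-fold for WT epithelium over KO stroma (1.06 to 1.51).

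In stroma, Ccnd1 rose 3.01-fold in KO over WT (2.10 to 4.44). Its adjusted p was 0.0395 in the authors' deposited table. It was the 1 member called among 4 listed in that table, where 1.51% of 1191 genes were called and 0.756% were called higher in KO. Ccnd1 is listed there through KO stroma alone, with an average of 1.24 in KO against 0.413 in WT. The call set beside these shares therefore supports nothing. For epithelium the authors' deposited table lists 1 as its adjusted p. On the log2 scale the KO effect was 1.59 in stroma and 0.22 in epithelium. The stroma effect exceeded the epithelium effect by 1.37 (95% counting interval 0.82 to 1.93, normal approximation on the log scale), which is no test between animals.

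Epithelial transcripts moved with Ccnd1 in stroma. Of 15 simple epithelium markers with a value in every pool, 14 had a higher level in the stroma of KO uteri, with Tjp1 as the exception. KO stroma had 1346 scaled UMIs of these markers in sum and WT stroma 693, a 1.94-fold ratio, against 3.01-fold for Ccnd1. None of the 15 was at 0 in either pool. The part of these transcripts in the Ccnd1 difference was not tested. In epithelium the same markers summed to 4206 scaled UMIs in KO and 4945 in WT.

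**Figure D1:**
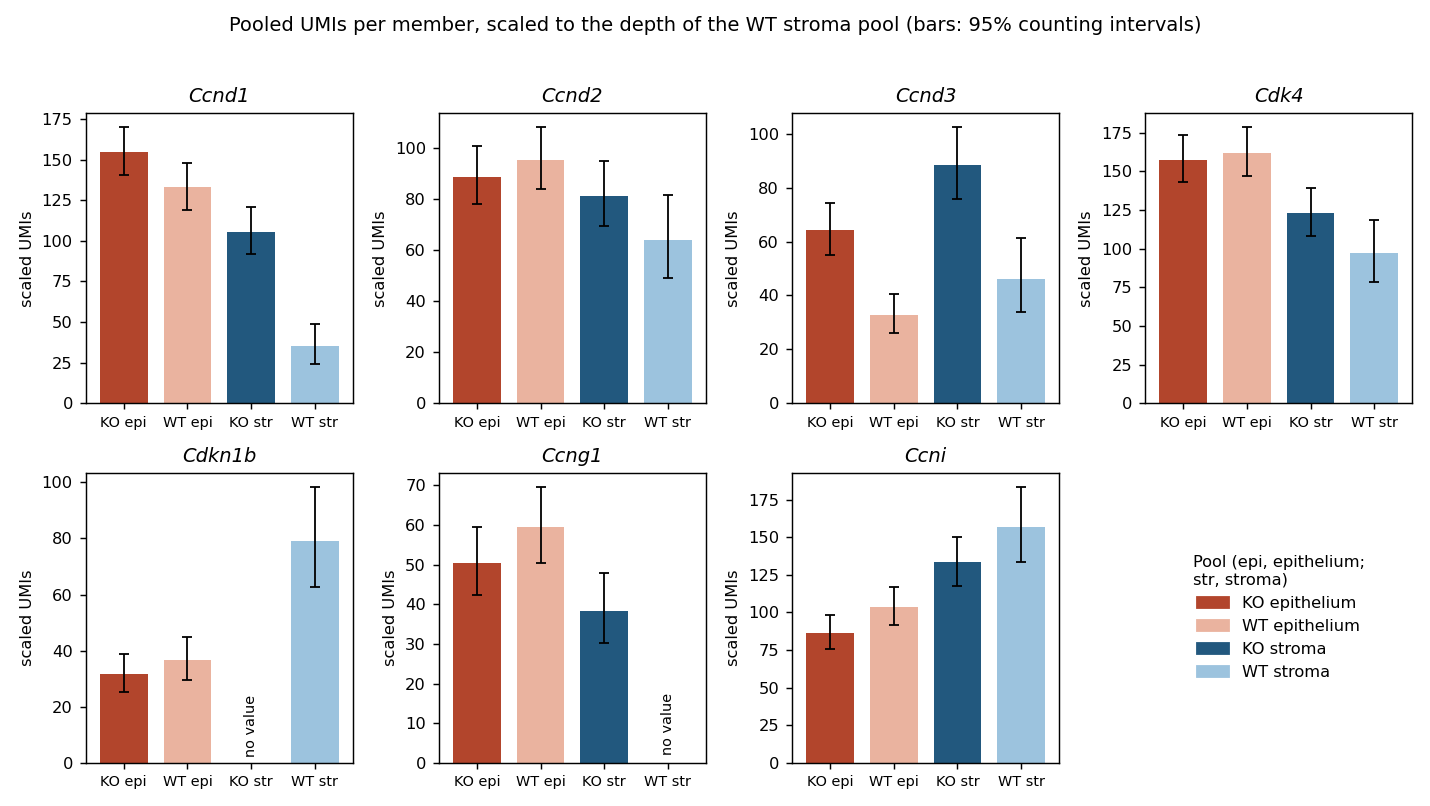
Scaled UMIs of the 7 listed members (vertical axes from 0) in the KO epithelium, WT epithelium, KO stroma and WT stroma pools, with 95% Poisson counting intervals; each bar is 1 pool of animals. Ccnd1 is low in WT stroma alone (35 against 105 to 155 in the other pools), Ccnd3 is higher in both KO pools than in both WT pools, and Cdkn1b and Ccng1 lack a value in a stroma pool.

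Ccnd2 encodes the D-type cyclin best known in the ovary and in blood cells, and lies on chromosome 6 (127125162 to 127152193, minus strand). KO epithelium had 245 UMIs of it, WT epithelium 243, KO stroma 164 and WT stroma 64. Scaled, KO epithelium stood at 88.9, WT epithelium at 95.6, KO stroma at 81.5 and WT stroma at 64. No neighbouring pair of this order differed beyond counting error. The KO over WT ratio was 0.930 (0.776 to 1.12) in epithelium (adjusted p = 1 in the authors' deposited table). In stroma the ratio was 1.27 (0.949 to 1.73), set across tables because the stroma genotype table does not list Ccnd2.

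Ccnd3, on chromosome 17 (47505051 to 47599691, plus strand), stood higher in KO in both compartments by nearly the same ratio. KO epithelium had 177 UMIs and WT epithelium 83, while KO stroma had 178 and WT stroma 46. Scaled, KO epithelium stood at 64.3 against 32.7 in its WT counterpart, and KO stroma at 88.5 against 46. WT epithelium and WT stroma did not differ beyond counting error, and the KO pools lay above both. The KO over WT ratio was 1.97 (1.51 to 2.59) in epithelium and 1.92 (1.38 to 2.72) in stroma. Both counting intervals lay above 1, yet neither ratio was called: in the authors' deposited tables the adjusted p was 0.637 for epithelium and 0.416 for stroma. The log2 effects were 0.98 in epithelium and 0.94 in stroma, and their difference was -0.03 (-0.63 to 0.57) for stroma minus epithelium.

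Markers of other cell types also differed between the genotypes' pools. The 17 endometrial stroma markers summed to 4372 scaled UMIs in KO epithelium against 3264 in its WT counterpart, a 1.34-fold ratio with 14 of 17 higher in KO and no marker at 0. The sums of 11 smooth muscle, 5 leukocyte and 5 blood endothelium markers had KO over WT ratios of 0.622, 1.23 and 0.934 in epithelium, and that of 15 simple epithelium markers was 0.851. Of these markers 1 of 11, 3 of 5, 3 of 5 and 2 of 15 were higher in KO epithelium. The blood endothelium sum thus went against most of its markers. Sox17 gave it 594 UMIs in KO epithelium and 664 in WT. Unlike Cdh5, Esam, Cldn5 and Egfl7, Sox17 was higher in epithelium than in stroma in both genotypes. In stroma the ratio was 1.94 for simple epithelium markers, 14 of 15 of them higher in KO, and 0.489 for smooth muscle. It was 0.879 for endometrial stroma, 0.808 for blood endothelium and 0.776 for leukocytes. Yet 10 of 17 endometrial stroma and 3 of 5 leukocyte markers were higher in KO stroma, beside 1 of 5 for blood endothelium. Dcn gave 5135 of the 9338 UMIs of endometrial stroma markers in WT stroma, and Jchain 999 of the 1753 of leukocyte markers. The part of these transcripts in the Ccnd3 ratios of 1.97 and 1.92 was not tested.

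Ccnd3 also had the compartment order opposite to Ccnd1. Epithelium over stroma was 0.726 (0.586 to 0.899) in KO (adjusted p = 0.533 in the authors' deposited table) and 0.710 (0.489 to 1.04) in WT, set across tables. A processed pseudogene of Ccnd3 is annotated elsewhere in GENCODE M21, and how reads shared with such copies were counted by the authors is not known here.

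**Figure D2:**
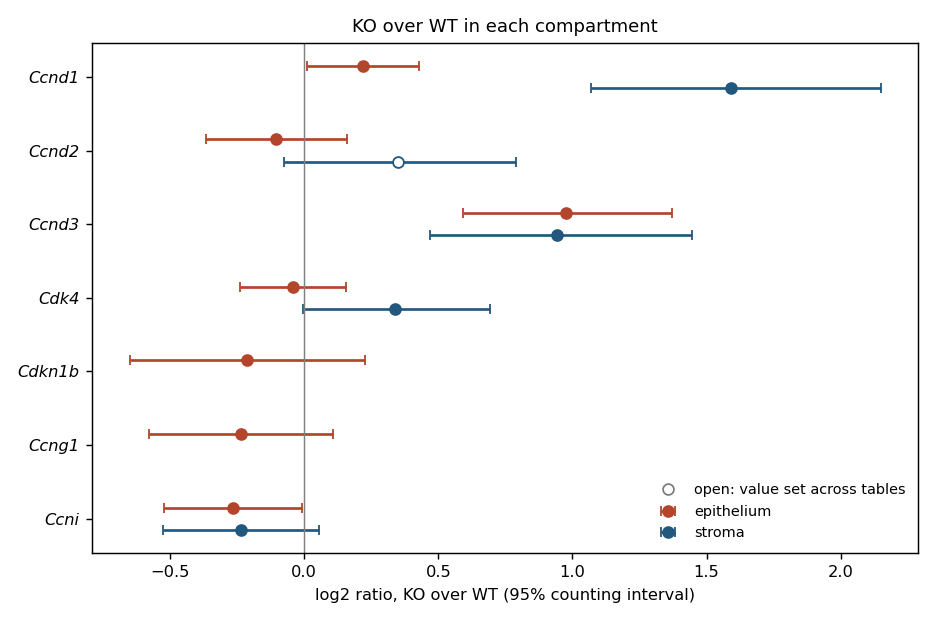
Log2 ratio of KO over WT (horizontal axis) for each member in epithelium and stroma, with 95% Clopper-Pearson counting intervals; open points are set across tables. The stroma point of Ccnd1 (1.59) lies far from its epithelium point (0.22), while both points of Ccnd3 lie near 1.

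The 3 D-type cyclins together gave KO epithelium 848 UMIs, WT epithelium 664, KO stroma 554 and WT stroma 145. As a scaled sum, KO epithelium had 308, WT epithelium 261, KO stroma 275 and WT stroma 145. The KO over WT ratio of the sum was 1.90 (1.58 to 2.30) in stroma and 1.18 (1.06 to 1.31) in epithelium. Epithelium over stroma was 1.12 (1.00 to 1.25) in KO and 1.80 (1.50 to 2.17) in WT. The KO pools thus differed little in summed D-type cyclin transcripts, and WT stroma had the least.

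The makeup of this sum does not depend on any scaling between pools. Ccnd1 made up 50.2% of D-type cyclin UMIs in KO epithelium (95% exact binomial interval 46.8 to 53.7) and 50.9% in WT epithelium (47.0 to 54.8). In stroma it made up 38.3% in KO (34.2 to 42.5) and 24.1% in WT (17.4 to 31.9). Ccnd3 made up 20.9% in KO epithelium (18.2 to 23.8) against 12.5% in WT epithelium (10.1 to 15.3), and 32.1% in KO stroma against 31.7% in WT stroma. Ccnd2 had the smaller share in KO in both compartments, 28.9% against 36.6% in epithelium and 29.6% against 44.1% in stroma. Its own level was not lower in KO beyond counting error, with KO over WT ratios of 0.930 in epithelium and 1.27 in stroma. A share also depends on the other members of the sum. The KO and WT pools had intervals that do not overlap for Ccnd2 and Ccnd3 in epithelium, and for Ccnd1 and Ccnd2 in stroma. These intervals cover counting error only, which is no test between animals.

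**Figure D3:**
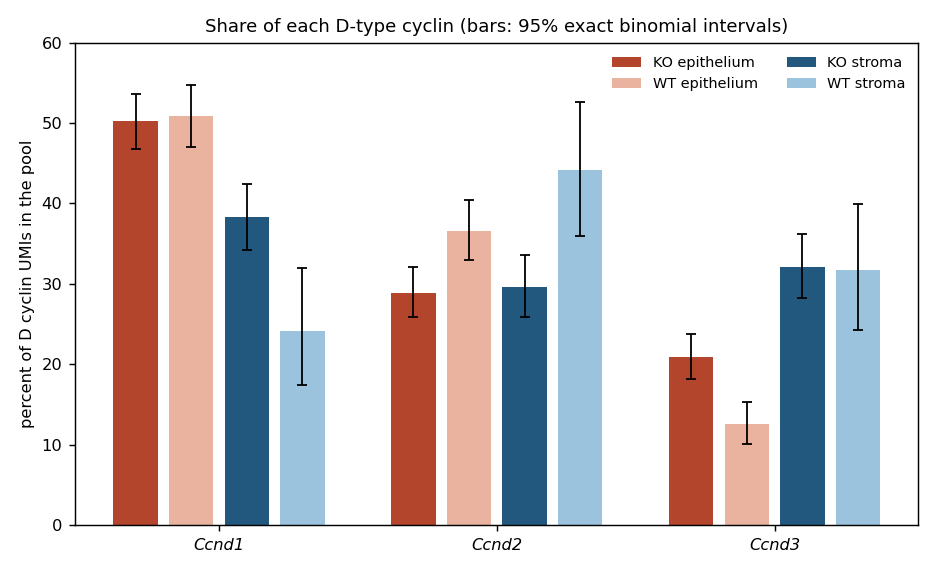
Share of each D-type cyclin in the summed D-type cyclin UMIs of a pool, in percent (vertical axis from 0), with 95% exact binomial intervals that cover counting error only. The Ccnd1 share is near 50% in both epithelial pools, 38.3% in KO stroma and 24.1% in WT stroma.

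Cdk4, the kinase partner of the D-type cyclins, lies on chromosome 10 (127063534 to 127067920, plus strand) and varied less. KO epithelium had 434 UMIs of it, WT epithelium 412, KO stroma 247 and WT stroma 97. Scaled, KO epithelium stood at 158, WT epithelium at 162, KO stroma at 123 and WT stroma at 97. The epithelial pools did not differ beyond counting error, nor did the stromal pools, and both epithelial pools lay above both stromal ones. Its KO over WT ratio was 0.972 (0.847 to 1.12) in epithelium and 1.27 (0.997 to 1.62) in stroma (adjusted p = 1 for both in the authors' deposited tables). Epithelium over stroma was 1.28 (1.10 to 1.51) in KO and 1.67 (1.34 to 2.11) in WT. The WT ratio came closest to a call without reaching it, with adjusted p = 0.704 for the KO ratio and 0.0567 for the WT ratio in the authors' deposited tables.

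Cdkn1b, on chromosome 6 (134920401 to 134925513, plus strand), was called higher in stroma than in epithelium in WT uteri. KO epithelium had 87 UMIs of it, WT epithelium 93 and WT stroma 79. Scaled, KO epithelium stood at 31.6, WT epithelium at 36.6 and WT stroma at 79. In WT the epithelial level was 0.463 times the stromal level (0.339 to 0.633), a called difference (adjusted p = 0.0143 in the authors' deposited table). Between epithelial pools the KO over WT ratio was 0.863 (0.637 to 1.17, adjusted p = 1 in the authors' deposited table).

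Neither table that includes KO stroma lists Cdkn1b. The tables list a gene where its average is above 1 in either group, and 0 genes known from another table to pass that limit were missing. If Cdkn1b was listed by the same rule, it had at most 89 UMIs in KO stroma, or 44.2 scaled, against 79 in WT stroma. That bounds its KO over WT ratio at 0.560 or less. Cdkn1b is listed in WT through stroma alone, where an average of 1 took 69.7 UMIs. Any gene so listed in WT and not listed with KO stroma gets a bound below 1. A bound below 1 was thus fixed by the listing limits, carries no test and supports nothing. Smooth muscle markers were lower in KO stroma too, where the 11 with a value in every pool summed to 1093 scaled UMIs in KO and 2234 in WT, with 0 of 11 higher in KO and no marker at 0. Their part in the level of Cdkn1b was not tested.

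D-type cyclin UMIs per Cdkn1b UMI numbered 9.75 for KO epithelium (7.81 to 12.3), 7.14 for WT epithelium (5.74 to 8.97) and 1.84 for WT stroma (1.39 to 2.45). For KO stroma the listing bound gives at least 6.22. WT stroma was thus the pool with the fewest D-type cyclin transcripts for each p27 transcript, under that condition. Cdkn1b has a value in WT stroma only because it passed the listing limit there, and the KO stroma figure is the limit itself. This order of the pools is therefore a description and supports nothing.

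Ccng1, on chromosome 11 (40748552 to 40755311, minus strand), gave KO epithelium 139 UMIs, WT epithelium 151 and KO stroma 77. Scaled, KO epithelium stood at 50.5, WT epithelium at 59.4 and KO stroma at 38.3. KO over WT in epithelium was 0.849 (0.670 to 1.08, adjusted p = 1 in the authors' deposited table). Epithelium over stroma in KO was 1.32 (0.991 to 1.77, adjusted p = 0.809 in the authors' deposited table). Its neighbouring levels did not differ beyond counting error.

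Ccni, on chromosome 5 (93181933 to 93206495, minus strand), had the same order in both genotypes, with more in stroma. KO epithelium had 238 UMIs of it, WT epithelium 264, KO stroma 268 and WT stroma 157. Scaled, KO epithelium stood at 86.4, WT epithelium at 104, KO stroma at 133 and WT stroma at 157. Epithelium over stroma was 0.649 (0.542 to 0.775) in KO and 0.662 (0.541 to 0.811) in WT, with adjusted p = 0.250 for KO and 0.137 for WT in the authors' deposited tables. The stromal pools did not differ beyond counting error, and both lay above the epithelial pools. KO over WT was 0.832 (0.695 to 0.995) in epithelium and 0.848 (0.694 to 1.04) in stroma (adjusted p = 1 for both in the authors' deposited tables). Ccni overlaps a processed pseudogene on the other strand and an unclassified gene model on its own strand.

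**Figure D4:**
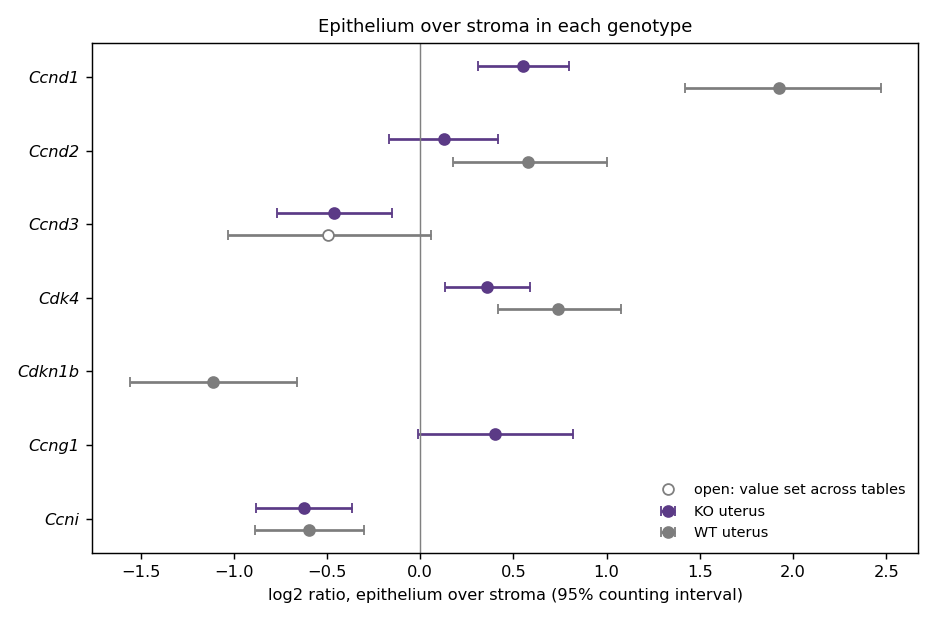
Log2 ratio of epithelium over stroma (horizontal axis) for each member in KO and WT uteri, with 95% Clopper-Pearson counting intervals; the open point is set across tables. The Ccnd1 point is 0.55 in KO and 1.93 in WT, whereas those of Ccni (-0.62 and -0.60) and Ccnd3 (-0.46 and -0.49) nearly coincide.

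Set beside all genes, the compartment comparison in KO called 0 of 6 listed members, where 9.88% of 2744 genes were called. The same comparison in WT called 2 of 5, Ccnd1 higher in epithelium and Cdkn1b higher in stroma, where the called genes made up 28.8% of 1769. Those higher in epithelium made up 13.1%, and those higher in stroma 15.7%. Ccnd1 is listed in WT through epithelium alone, with averages in the authors' deposited table of 1.91 in epithelium and 0.502 in stroma. Cdkn1b is listed there through stroma alone, at 0.525 in epithelium and 1.13 in stroma, so the count of 2 of 5 supports nothing. For Ccnd1 the ratio in KO was 1.47 (1.24 to 1.74, adjusted p = 0.415 in the authors' deposited table). In WT it was 3.80-fold higher in epithelium (2.68 to 5.55, adjusted p = 1.5e-06 in the authors' deposited table). Ccnd2 had ratios of 1.09 (0.892 to 1.34) in KO and 1.49 (1.13 to 2.00) in WT, with adjusted p = 1 for KO and 0.344 for WT in the authors' deposited tables.

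Between genotypes in epithelium 0 of 7 listed members were called, where 0.120% of 5811 genes were called. Raw p-values were not analysed here, so no count at an unadjusted threshold is given. The members' median log2 ratio was -0.10, as was that of all listed genes. Relative to that shift Ccnd2 and Cdk4 stood at 0.00 and 0.06, Ccnd1 at 0.32 and Ccnd3 at 1.08. Below it were Cdkn1b at -0.11, Ccng1 at -0.13 and Ccni at -0.16. In stroma the 4 listed members had a median of 0.64 and all genes one of -0.05. Ccnd1 and Ccnd3 are listed there through KO stroma alone, with averages in the authors' deposited table of 1.24 and 1.04 in KO against 0.413 and 0.543 in WT, so that median supports nothing.

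**Figure D5:**
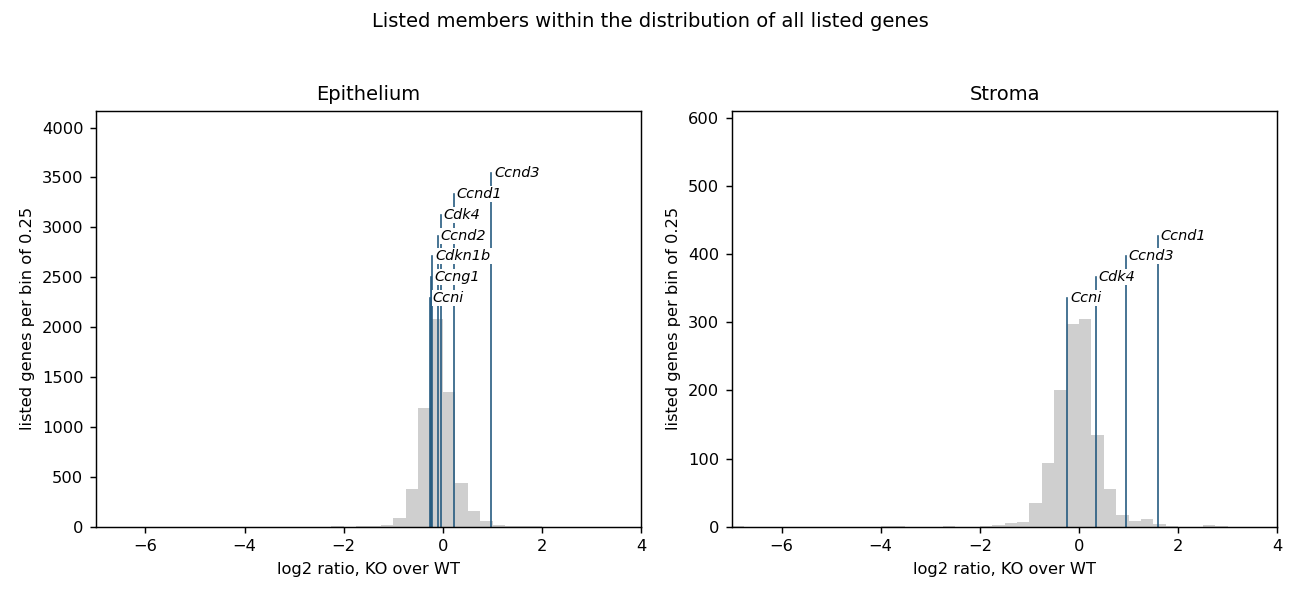
Number of listed genes per bin of 0.25 (vertical axis) by log2 ratio of KO over WT (horizontal axis) in epithelium and stroma, with lines at the listed members. In epithelium Ccnd3 (0.98) and in stroma Ccnd3 (0.94) and Ccnd1 (1.59) stand to the right of the other members. Ccnd1 and Ccnd3 are listed in stroma through their KO averages alone, so their place among the listed genes there is no result.

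Other genes of the pathway were read from lists chosen by function. Between genotypes 0.120% of 5811 listed genes were called in epithelium and 1.51% of 1191 in stroma. A count of 0 called in lists this short therefore supports nothing. Of 19 kinases, pocket proteins and E2F factors that act with D-type cyclins, 5 were listed in the epithelial genotype table and 0 in the other tables. Among those 5, none was called and 1 had a value above 0, with a median log2 ratio of -0.39. E2f4, a repressor E2F, had a KO over WT ratio of 1.06 (0.805 to 1.41), and Mnat1, an assembly factor of the kinase that activates CDKs, had 0.742 (0.552 to 0.994). Of 30 genes of S and M phase, 14 were listed in epithelium with 0 called and a median of -0.05, and 2 in stroma with 0 called. These 2 were H2afz, a histone variant, at 0.777 (0.676 to 0.895) and Tuba1b, a tubulin, at 1.01 (0.909 to 1.13). Most genes that mark cycling cells were thus not among the listed genes.

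Of 15 other cell-cycle brakes, 1 of 4 listed in KO and 2 of 2 listed in WT were called in the compartment comparisons, each lower in epithelium. Of all genes listed, 9.88% were called in KO and 28.8% in WT, and 15.7% of the WT table was called higher in stroma. An average of 1 took 177 UMIs in epithelium and 69.7 in stroma in the WT comparison, and 122 and 89.2 in KO. Cdkn1c, with 75 and 91 UMIs in WT and 110 and 178 in KO, is thus listed through stroma alone. The counts called therefore do not show where such brakes lie in general. Cdkn1c, which encodes p57, a relative of p27, had an epithelium over stroma ratio of 0.451 (0.353 to 0.576) in KO and 0.324 (0.236 to 0.445) in WT, called in both tables. Btg1, an antiproliferative gene, had 0.730 (0.628 to 0.849) in KO, where it was not called, and 0.438 (0.370 to 0.518) in WT, where it was. Between genotypes none of the 11 listed in epithelium or the 2 listed in stroma was called. The shares over all genes were 0.120% and 1.51%, so these counts of 0 support nothing. In stroma Cdkn1c had a KO over WT ratio of 0.972 (0.751 to 1.27) and Btg1 of 0.653 (0.556 to 0.769), with adjusted p = 1 for Cdkn1c and 0.671 for Btg1 in the authors' deposited table.

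Targets of p53 other than the members gave no call between genotypes, with 8 of 14 listed in epithelium (median log2 ratio 0.02) and 0 in stroma. Only 0.120% of all genes were called between genotypes in epithelium and 1.51% in stroma, so a lack of calls there supports nothing. Between compartments Perp, a desmosomal p53 target, was higher in epithelium by 3.22-fold (2.33 to 4.54) in KO and 7.40-fold (3.93 to 15.7) in WT. Sesn1, a stress-response gene, and Phlda3, an inhibitor of Akt, were called higher in stroma in WT, with epithelium over stroma ratios of 0.456 and 0.526. By the UMIs that give an average of 1, Perp is listed through epithelium alone, and Sesn1 and Phlda3 through stroma alone. Their calls therefore do not show where p53 targets lie in general. Of all genes listed, 9.88% were called in KO and 28.8% in WT. Of 22 other atypical cyclins and their kinases, 14 were listed in epithelium and 1 in stroma between genotypes, and 6 in KO and 1 in WT between compartments, with 0 called in each. Ccnl2, a cyclin linked to splicing, had KO over WT ratios of 0.846 (0.714 to 1.00) in epithelium and 0.859 (0.700 to 1.06) in stroma.

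Of 25 hormone and growth factor inputs to cyclin D, 17 were listed in epithelium and 7 in stroma between genotypes, with 0 called in each. Their medians were -0.12 and -0.35, beside -0.10 and -0.05 for all genes. The shares called over all genes were 0.120% in epithelium and 1.51% in stroma, so these counts of 0 support nothing. Between compartments 2 of 14 inputs were called higher and 3 lower in KO epithelium, and 1 of 9 was called higher and 4 lower in WT epithelium. Of all genes listed, 9.88% were called in KO and 28.8% in WT. Of the called genes, Fgfr2 and Klf5 are listed through epithelium alone, and Igf1, Klf4 and Klf15 through stroma alone. These counts therefore do not show where such inputs lie in general. Fgfr2, a fibroblast growth factor receptor, was higher in epithelium by 2.56-fold (1.95 to 3.38) in KO and 3.46-fold (2.35 to 5.27) in WT. Klf5, a proliferative Krüppel-like factor, was higher in epithelium by 2.82-fold (2.01 to 4.04) in KO. Klf9, a progesterone receptor partner, had epithelium over stroma ratios of 0.378 in KO and 0.246 in WT, and Igf1, the growth factor that stroma supplies to epithelium, of 0.504 in KO and 0.301 in WT. Klf15 was called higher in stroma in KO (0.422), as were Klf4 (0.424) and Igf1r (0.556) in WT. The estrogen receptor gene Esr1 had KO over WT ratios of 0.921 (0.836 to 1.01) in epithelium and 0.782 (0.692 to 0.885) in stroma. Those of Ctnnb1 were 0.867 (0.795 to 0.946) and 1.04 (0.912 to 1.18). Neither gene was called between genotypes.

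The genes most like Ccnd1 over the 4 pools were sought among 1575 other genes with at least 50 UMIs in every pool, by the distance between log2 levels centred on each gene's mean. Ccnd1 itself has 35 UMIs in WT stroma, under that minimum, which also leaves out genes low there such as Krt8 with 44 UMIs and Krt19 with 36. The nearest of those compared was Anpep, an aminopeptidase, at a distance of 0.53, at 474 scaled UMIs for KO epithelium, 496 for WT epithelium, 241 for KO stroma and 91 for WT stroma. The mitochondrial transcript mt-Co1 (0.62) and Plat, a plasminogen activator (0.69), came next. For Ccnd2 the nearest were Ndufb3 (0.03), Rpl14 (0.05) and Plxnb2 (0.06). With 4 pools these distances only describe the pools.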

How the data were processed

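Tissue sections 10 µm thick from 4 KO and 4 WT uteri were read by Visium, per the labels' protocols. Reads were placed on GRCm38, per the submitters' processing notes. Which aligner, which spot naming and which test the authors used is not given in the sources used here.

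The deposited tables give, per the file headers, an average signal per group, a log2 fold change and an adjusted p-value, all pooled over animals by the authors. UMI sums were recovered by solving the size factor sums that link averages and log2 fold changes. All sums were whole within 0.01, and 0 genes differed between tables. Recovered UMIs over listed genes numbered 1552958 for KO epithelium, 1428541 for WT epithelium, 947663 for KO stroma and 416747 for WT stroma. Ratios of scaled sums carry 95% Clopper-Pearson intervals and levels Poisson intervals, all for counting error only. A gene was called where the authors' adjusted p was under 0.05.

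Simulated data made with the same formula gave back 100% of their sums, which checks the solving step alone. In them the 95% intervals held the true ratio for 95.3% to 96.1% of unchanged genes. For genes changed 2-fold or 4-fold the share was 90% to 98% by comparison. Members and lists were chosen with earlier results of these data known. All 8 members were named, with every called gene of the pathway lists and the 3 genes nearest to Ccnd1 and Ccnd2. Up to 2 uncalled list genes of highest level per list and table were also taken. Only some of these uncalled genes are printed, by no fixed rule. Alternatives were a stricter p (0.01), an absolute log2 fold of at least 1, leaving out the lowest 25% of genes, centring and the deposited log2 values. Positions come from GENCODE M21. Python 3.11.15, NumPy 2.4.6, SciPy 1.17.1, pandas 2.3.3 and matplotlib 3.10.9 were used.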

Additional observations from a re-analysis of the deposited data

How the results depend on the processing

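At an adjusted p under 0.01 0 members were called in the stroma genotype comparison and 1 in the WT compartment comparison, where Ccnd1 kept its call and Cdkn1b lost it. Without the lowest 25% of genes, which by construction drops genes of low average, the counts were likewise 0 and 1, with Ccnd1 dropped in the stroma genotype table and Cdkn1b in the WT compartment table. The other member counts were the same under these settings, and all 4 were the same with an absolute log2 fold of at least 1. Centring on the median gene moved 0 of 28 member and summed ratios outside their counting intervals and turned the sign of 2, Ccnd2 and Cdk4 in epithelium, both close to 0. The deposited log2 values moved 0 of 22. No paired analysis was possible because each genotype enters as 1 pool of its animals. For the same reason no replicate could be left out. The stroma ratios rest on 35 UMIs of Ccnd1 and 46 of Ccnd3 in WT stroma.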
